A study of Homo sapiens with 12 samples.

Results

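The proteasome subunit genes were taken as every gene whose symbol consists of PSM, a letter from A to G and a number, which gave 48 of the 28278 genes counted. Their expression was followed by RNA sequencing in K562, a human erythroleukaemia cell line, in 4 groups of 3 libraries. WT cells, with HRG1 intact, and HRG1-KO cells were each left untreated or given sodium butyrate, a histone deacetylase inhibitor that can drive K562 towards the erythroid lineage. Treated cells received 0.75 mM butyrate 24 h after they were plated and again 48 h later, and harvest followed the second dose by 6 h. The series' design text speaks of day 8, and its relation to this schedule is not given in the sources used here. HRG1 is a heme transporter encoded by SLC48A1. How the knockout was made, whether the KO cells are 1 clone and whether replicates were separate cultures are not given in the sources used here, so p-values measure the spread between these libraries, which may be technical.

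The proteasome is the protease that degrades most ubiquitin-tagged proteins of the cell. Its barrel-shaped core (20S) is built from rings of alpha subunits (PSMA genes), which gate the entry, and beta subunits (PSMB genes), 3 of which, PSMB5, PSMB6 and PSMB7, cut the substrate. The cap (19S) binds ubiquitin chains and feeds the unfolded protein into the core with a ring of ATPases (PSMC genes) and with non-ATPase subunits (PSMD genes). In immune cells and after interferon, PSMB8, PSMB9 and PSMB10 replace PSMB5, PSMB6 and PSMB7 to form the immunoproteasome, whose peptides suit MHC class I presentation. PSME1 and PSME2 form the PA28 activator ring, PSME3 forms its nuclear relative and PSME4 (PA200) is a single-chain activator, while PSMF1 (PI31) binds the core and the PSMG genes, PSMD5, PSMD9 and PSMD10 encode assembly chaperones.

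The immunoproteasome genes and the PA28 genes are the members known for induction by interferon, so their promoters are shown to let the reader see what differs among them. Each is the first RefSeq window listed for the gene (GRCh38.p14), running from 250 bases before the start site to 50 after it, 5′ to 3′ on the gene's strand. Capitals mark matches, on either strand, to a pattern of the interferon-stimulated response element, GAAA followed by any 2 bases and again GAAA.
PSMB9, chr6:32853942-32854241, plus strand: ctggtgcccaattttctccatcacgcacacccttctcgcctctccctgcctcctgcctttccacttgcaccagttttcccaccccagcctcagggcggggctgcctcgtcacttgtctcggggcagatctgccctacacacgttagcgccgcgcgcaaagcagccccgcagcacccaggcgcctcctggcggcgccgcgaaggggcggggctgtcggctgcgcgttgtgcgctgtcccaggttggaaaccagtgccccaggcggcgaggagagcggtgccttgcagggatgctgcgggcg
PSMB8, chr6:32844630-32844929, minus strand: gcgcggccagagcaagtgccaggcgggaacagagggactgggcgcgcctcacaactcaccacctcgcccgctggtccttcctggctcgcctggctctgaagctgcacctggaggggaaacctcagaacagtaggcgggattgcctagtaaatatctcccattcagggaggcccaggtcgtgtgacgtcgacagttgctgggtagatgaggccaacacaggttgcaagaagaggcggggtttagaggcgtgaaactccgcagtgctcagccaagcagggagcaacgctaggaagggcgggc
PSMB10, chr16:67936801-67937100, minus strand: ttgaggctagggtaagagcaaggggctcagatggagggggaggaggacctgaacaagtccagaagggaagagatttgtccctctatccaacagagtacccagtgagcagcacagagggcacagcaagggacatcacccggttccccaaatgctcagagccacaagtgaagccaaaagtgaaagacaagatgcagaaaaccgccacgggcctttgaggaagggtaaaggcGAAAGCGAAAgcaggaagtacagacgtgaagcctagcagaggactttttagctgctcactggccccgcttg
PSME1, chr14:24135944-24136243, plus strand: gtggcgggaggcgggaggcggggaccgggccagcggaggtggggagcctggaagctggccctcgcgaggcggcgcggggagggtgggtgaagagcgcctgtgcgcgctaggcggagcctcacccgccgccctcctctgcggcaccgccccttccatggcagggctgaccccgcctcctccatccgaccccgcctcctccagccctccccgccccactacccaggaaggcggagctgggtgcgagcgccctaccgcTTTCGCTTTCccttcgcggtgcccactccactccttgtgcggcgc
PSME2, chr14:24146561-24146860, minus strand: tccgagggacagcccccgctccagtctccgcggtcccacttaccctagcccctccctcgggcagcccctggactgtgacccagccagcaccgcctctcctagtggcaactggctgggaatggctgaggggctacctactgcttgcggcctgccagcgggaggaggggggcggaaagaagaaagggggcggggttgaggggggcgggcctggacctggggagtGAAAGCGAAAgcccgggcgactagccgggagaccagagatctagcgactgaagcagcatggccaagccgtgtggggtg
The pattern was present at base -21 of PSMB10, base -28 of PSME2 and base 6 of PSME1, counted from the start site. Those letters did not occur in the PSMB8 and PSMB9 windows printed above. Among the 42 members with a window in the RefSeq table, 6 (14.3%) held it, namely PSMA4, PSMB4, PSMB10, PSME1, PSME2 and PSMG4, against 3.65% of all 27305 windows of the same length. The pattern TGACNNNGC, which resembles the antioxidant response element read by NFE2L1, the factor known for raising proteasome genes when the protease is inhibited, was in 13 of the 42 (31.0%) against 13.6% of all windows. A core motif of ETS factors, CCGGAAG, was likewise in 13 of 42 (31.0%) against 10.7%, both strands being searched in each case. The other patterns searched were also more frequent among the members. They were TTCNNNGAA (11.9% against 7.88%), CCAAT (45.2% against 35.7%) and the GC box GGGCGG (66.7% against 44.6%). TTCNNNGAA was in none of the windows printed above. Members and all windows were not matched for base composition. These are matches of letters, not measured sites.

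Of the 48 members, 46 had enough counts to be tested. PSMA8, the alpha subunit of the testis proteasome, and PSMB11, the beta subunit of the thymus proteasome, had 0 counts in all 12 libraries. Library totals ranged from 19963594 to 30348538 counts, and levels are given as CPM, counts scaled to a common library size by TMM, in the order of replicates 1, 2 and 3. SLC48A1 stood at 73.5, 82.2 and 65.4 CPM in untreated WT and at 2.94, 8.32 and 6.55 CPM in untreated KO, and its level was also lower in KO after butyrate (log2 fold changes -3.63 ± 0.35 and -3.07 ± 0.34, SE). The library numbered 1 stood apart in every group: it had the highest summed level of the proteasome genes (7224 to 8414 CPM, against 4758 to 6291 CPM in the other libraries) and, within its group, the largest share of counts on the ribosomal RNA gene RNA28SN5 (2.30% to 5.63%). The part of these libraries in each result is given by values without them. All 8 erythroid markers checked, among them GATA1 and TFRC, were detected in each group.

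Levels between genes were compared per kilobase of transcript, using the median length of each gene's protein-coding transcripts in GENCODE release 29. In untreated WT cells the 14 constitutive core genes ran from 55.4 ± 17.3 CPM per kb for PSMB2 to 399 ± 115 for PSMB3 (SD, n = 3), a 7.21-fold range for subunits that enter the same barrel. This range depends on the lengths used, 3459 bases for PSMB2 and 773 for PSMB3. Before division by length, PSMB2 had a mean of 192 CPM there, above the 75.0 CPM of PSMB6. The cap lay lower: its ATPase genes had a median of 75.8 CPM per kb and its non-ATPase genes 79.6, against 166 for the core. PSMC1, which encodes an ATPase of the ring, was the lowest cap gene at 11.4 ± 1.31 CPM per kb, and it has 13 of the 52 pseudogenes that RefSeq names for 21 of the members. None of these 52 has a row in the count table, so reads shared with them may be lost or assigned to the parent gene. The immunoproteasome genes were also low, with PSMB8 at 0 counts, PSMB9 at 2.65 ± 2.45 and PSMB10 at 18.0 ± 3.64 CPM per kb.

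**Figure D1:**
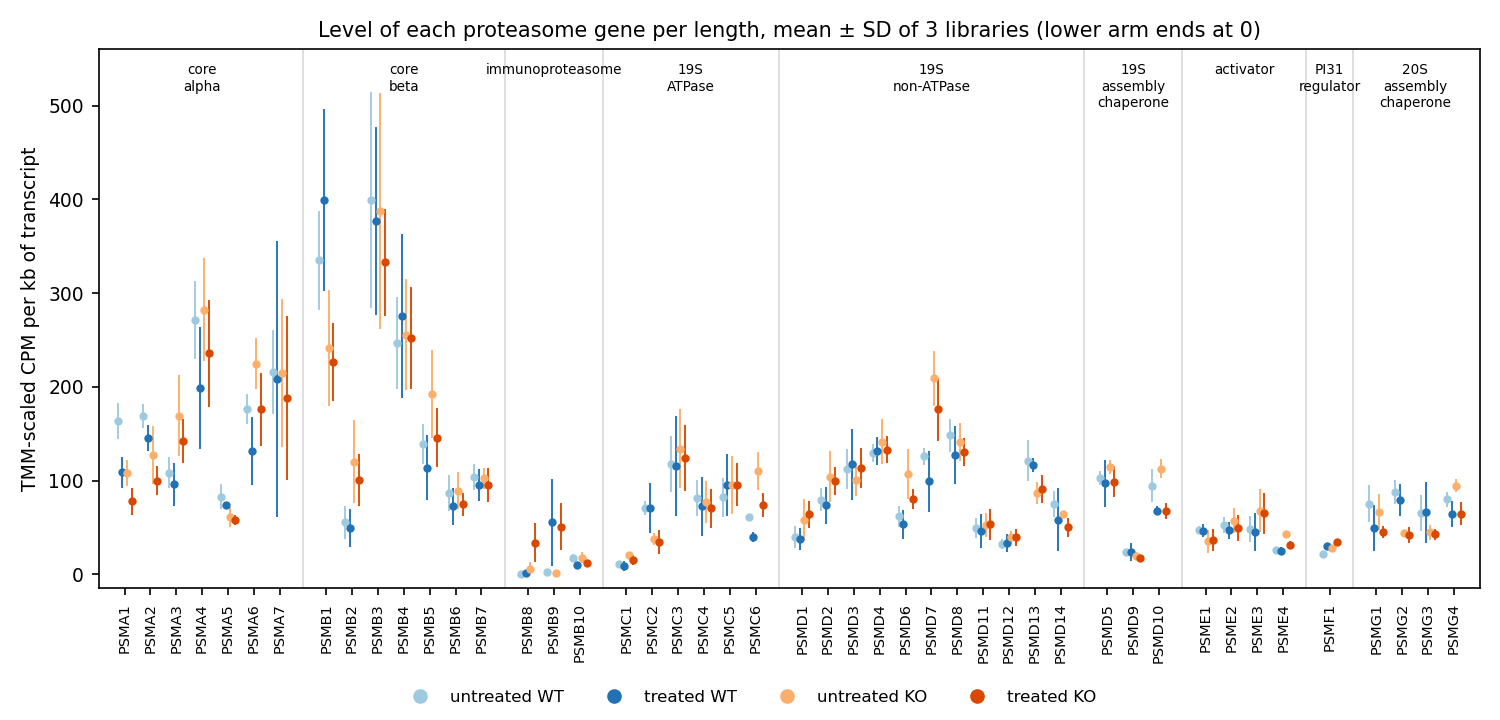
Level of each proteasome gene per length, in TMM-scaled CPM per kb of transcript (vertical axis), by gene and class (horizontal axis). Points are means and bars the SD of 3 libraries in each of the 4 groups; the core beta genes reach 399 CPM per kb while PSMB8 is at 0 in untreated WT.

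The members that moved farthest with butyrate were PSMB9 and PSMB8, the inducible counterparts of PSMB6 and PSMB5. PSMB9 had 0, 53 and 113 counts in untreated WT (0, 2.46 and 3.80 CPM) and 256, 1960 and 1062 counts in treated WT (13.3, 83.6 and 33.8 CPM). It had 0, 0 and 65 counts in untreated KO (0, 0 and 2.17 CPM) and 415, 1311 and 1790 counts in treated KO (19.1, 43.3 and 57.7 CPM). Every treated library was thus above every untreated one in both genotypes, as was the case for 11.3% of all genes in WT and 12.6% in KO, and replicate 1 was the lowest of the treated libraries in each. In KO the rise passed the threshold (log2 fold change 5.65 ± 1.40, edgeR quasi-likelihood adjusted p = 0.0459, and 0.0027 with the replicate number as a block). In WT it did not (4.35 ± 1.29, adjusted p = 0.103) unless the block was used (0.0084). The call in KO passed in 2 of 6 fits that left out 1 library, which lacked replicate 3 of the untreated KO cells (0.0272) or replicate 1 of the treated ones (0.0335). Without replicate 1 or 2 of untreated KO, or replicate 2 or 3 of treated KO, the adjusted p was 0.137, 0.175, 0.136 and 0.104. Without the 4 libraries numbered 1, it was 0.00455 in KO and 0.0114 in WT. In these bulk samples, more cells with PSMB9 RNA and more of it per cell cannot be told apart.

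PSMB8 was absent from the counts of untreated WT cells and highest in KO cells given butyrate. Its counts were 0, 0 and 0 in untreated WT, 0, 24 and 120 in treated WT, 0, 48 and 496 in untreated KO, and 266, 1383 and 1752 in treated KO. On the CPM scale treated KO stood at 12.2, 45.7 and 56.5, while replicate 3 of untreated KO was at 16.6 and replicate 3 of treated WT at 3.81. Treated KO therefore did not overlap treated WT, but its replicate 1 was below replicate 3 of untreated KO. If a count of 0 allows up to 3 counts, that is 0.101 to 0.162 CPM in the untreated WT libraries. Against that limit per library the mean of treated WT was at least 12.02-fold higher and the mean of untreated KO at least 46.9-fold higher. Both folds take each count as 1 fragment. The counting doubt described below, of counts in multiples of 8, therefore applies to them, and they may be too high. The difference between the untreated genotypes passed the threshold (adjusted p = 0.0269, and 0.00211 with the block) even though replicate 1 of KO was at 0. It failed without any 1 of the untreated WT libraries (0.0647, 0.0692 and 0.0790) and without replicate 3 of untreated KO (0.0933). The rise with butyrate was below the threshold in WT (adjusted p = 0.189) and in KO (2.59 ± 1.44, 0.353), as was KO against WT in treated cells (4.52 ± 1.58, 0.0722), and with the block these reached 0.0310, 0.0149 and 0.00117. Without the libraries numbered 1 they were 0.0262, 0.0720 and 0.00661, and that between the untreated genotypes was 0.00231.

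The level of PSMB8 carries a counting doubt. Of its 7 counts above 0, 5 were multiples of 8 (71.4%), against 65 of 528 (12.3%) for the members other than PSMB8 and PSMB9 and 12.6% of all values of at least 100. PSMB9 showed this in 2 of 9, TAP1 in 3 of 12 and TAP2 in 1 of 12 values above 0, whereas HLA-DPA1 showed it in 4 of 4 and MAS1L in 6 of 6. The antisense gene PSMB8-AS1 overlaps PSMB8 on chromosome 6 and had multiples of 4 in 7 of 7 values above 0. How reads with several matches and the strand were handled is not given in the sources used here, and the part of either in the level of PSMB8 was not tested.

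PSMB10, the third inducible subunit, was lower rather than higher in treated WT. Its levels were 27.0, 19.7 and 18.9 CPM in untreated WT and 16.3, 10.6 and 8.33 CPM in treated WT with no overlap, as for 10.4% of all genes that were lower there. The values in KO were 23.7, 13.5 and 27.4 CPM untreated and 17.5, 11.96 and 13.7 CPM treated, with overlap. The log2 fold change with butyrate was -0.90 ± 0.33 in WT (adjusted p = 0.170, and 0.0484 with the block) and -0.58 ± 0.33 in KO (0.347, and 0.161 with the block).

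**Figure D2:**
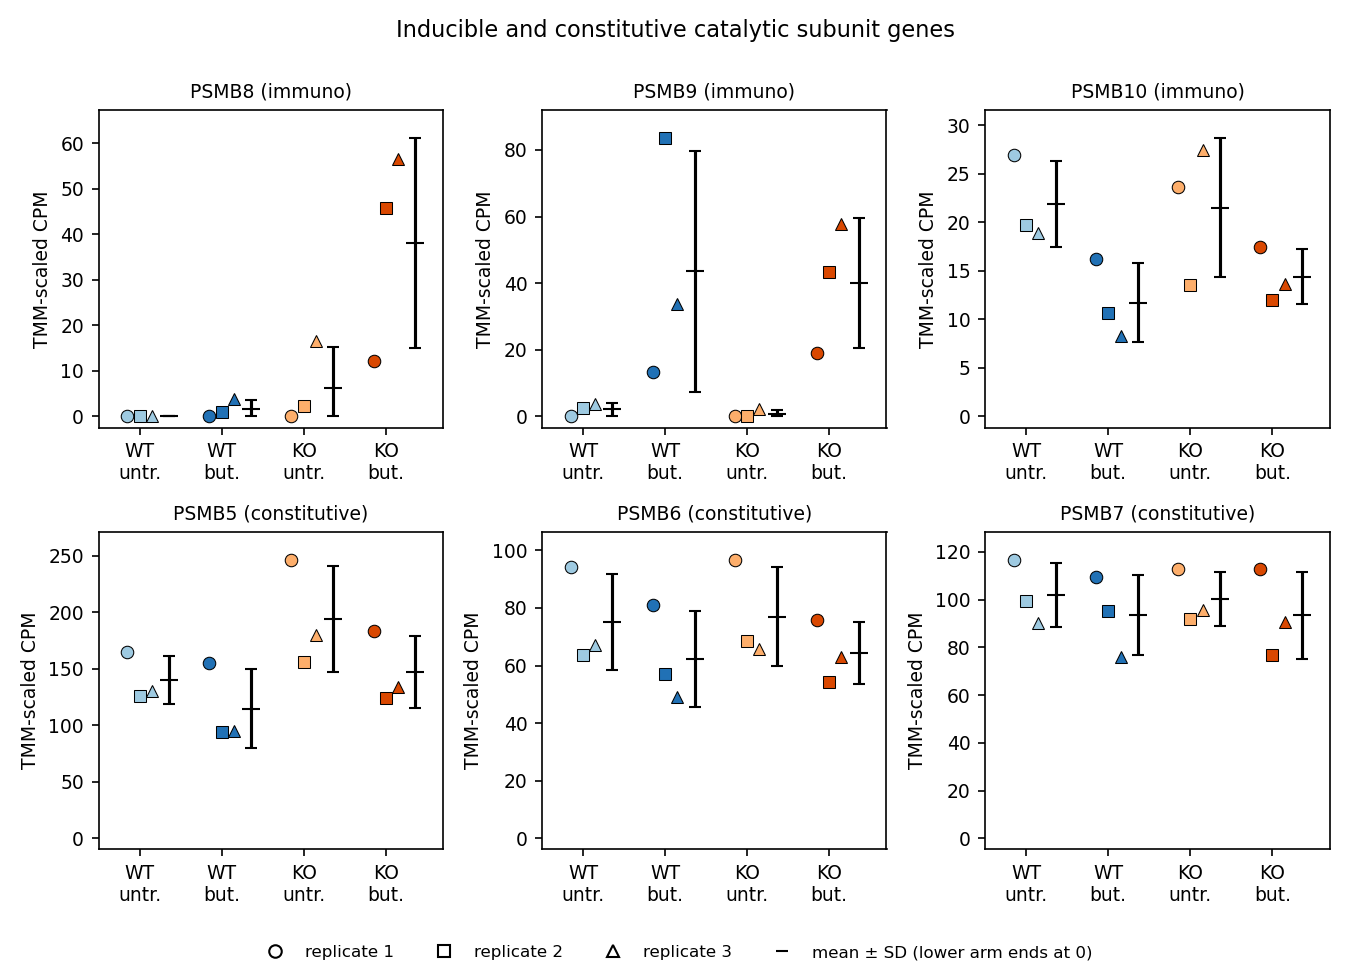
Levels of the inducible genes PSMB8, PSMB9 and PSMB10 and of their constitutive counterparts PSMB5, PSMB6 and PSMB7 in TMM-scaled CPM (vertical axes) by group (WT or KO, untreated or butyrate), with each library as a point and the mean ± SD of 3 libraries beside it. PSMB9 lies between 13.3 and 83.6 CPM in the treated libraries and at 3.80 CPM or less in the untreated ones, while the counterparts overlap between all groups compared.

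The constitutive counterparts did not pass the test in any comparison. PSMB5 was at 165, 126 and 130 CPM in untreated WT, 155, 94.1 and 94.7 in treated WT, 246, 156 and 180 in untreated KO and 183, 124 and 134 in treated KO. PSMB6 ran from 49.1 to 96.8 CPM and PSMB7 from 75.9 to 117 CPM over all 12 libraries. With the block PSMB5 was higher in untreated KO than in untreated WT (0.47 ± 0.26, SE, without the block, where the adjusted p was 0.218, and 0.0272 with it).

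Set against its counterpart, each inducible gene gives a share of the counts of the pair. PSMB9 made up 0%, 3.72% and 5.36% of the PSMB9 and PSMB6 counts in untreated WT and 14.1%, 59.5% and 40.7% in treated WT. In KO the shares were 0%, 0% and 3.19% untreated and 20.1%, 44.4% and 47.9% treated. The Wilson 95% interval of the highest share, in replicate 2 of treated WT, was 57.8% to 61.2%, and such intervals cover counting error only. PSMB8 reached 6.25%, 26.8% and 29.7% of the PSMB8 and PSMB5 counts in treated KO and at most 3.87% in treated WT. The counting doubt given above for PSMB8 applies to these shares, which may be too high. PSMB10 made up a share of its pair with PSMB7 that ranged less: 16.6% to 18.8% in untreated WT, 9.89% to 13.0% in treated WT, 12.8% to 22.3% in untreated KO and 13.1% to 13.5% in treated KO.

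The PA28 genes PSME1 and PSME2 passed the test in no comparison. PSME1 was at 52.9, 44.6 and 46.1 CPM in untreated WT, 39.9, 52.4 and 50.5 in treated WT, 29.5, 28.3 and 50.6 in untreated KO and 28.6, 32.9 and 50.6 in treated KO. PSME2 was at 49.9, 43.6 and 35.3 CPM, 34.0, 46.3 and 34.0, 54.7, 34.0 and 51.3, and 34.8, 32.7 and 53.1 in the same order of groups. Neither gene had groups apart in any comparison. In KO the library numbered 3 was the highest of its group, except for PSME2 in untreated cells, where replicate 1 was the highest. PSME3 overlapped between the groups of each comparison, at 194, 109 and 147 CPM in untreated WT, 211, 107 and 99.7 in treated WT, 272, 224 and 131 in untreated KO and 235, 244 and 122 in treated KO. PSME4 behaved otherwise and is described with the genotype comparison.

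Among the other members, the response to butyrate was small. In WT 0 of the 46 members passed the test by edgeR, where 2.35% of all genes did, although 7 had an unadjusted p under 0.05 (15.2%, against 18% of all genes) and DESeq2 called 3 (8.42% of all genes). With the block 6 passed (8.61% of all genes): PSMB8 and PSMB9 higher and PSMA1, PSMB10, PSMC6 and PSMG1 lower. In KO 2 of 46 passed (4.35%, against 3.40% of all genes), PSMB9 upward and PSMD10 downward, and with the block 4 (background 11.7%), PSMB8 and PSMC6 being added. Leaving PSMB8 and PSMB9 aside, the log2 fold changes of the 44 others ran from -0.90 to 0.42 in WT and from -0.74 to 0.31 in KO. Their medians, -0.14 and -0.17, compare with 0.02 and 0 over all 15805 genes. Without the libraries numbered 1, 8 members passed in WT (2 higher, 6 lower, where 11.4% of all genes did), and the median of the 46 was -0.28 in place of -0.12. With 1 library left out that median ran from -0.37 (without replicate 1 of treated WT) to -0.0072 (without replicate 1 of untreated WT). In KO it was -0.15, and ran from -0.33 (without replicate 1 of treated KO) to -0.0033 (without replicate 1 of untreated KO).

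PSMD10, also known as gankyrin, is an assembly chaperone of the cap. Its levels were 96.4, 81.2 and 85.2 CPM in untreated KO and 58.6, 45.1 and 54.0 CPM in treated KO, with no overlap, as for 11.8% of all genes that were lower there (-0.74 ± 0.18, adjusted p = 0.0477). In WT it was at 67.2, 89.6 and 64.2 CPM untreated and 48.6, 54.3 and 56.1 CPM treated. This was again without overlap, as for 10.4% of all genes that were lower there, and the test was not passed. The call in KO held in 1 of the 6 fits that left out a library, the one without replicate 1 of treated KO (0.0441), the others giving 0.0971 to 0.210.

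By class, the constitutive core had folds mostly below 1 with butyrate, and none of its genes passed the test. In WT 12 of its 14 genes had a fold below 1 (median -0.17), and in KO 14 of 14 (median -0.25). Scaled by library size alone, 10 of 14 were below 1 in KO (median -0.12), the median of all genes then being 0.12. The cap had 12 of 17 genes below 1 in each genotype, with medians of -0.09 and -0.11. Of all 15805 genes, 7513 had a fold below 1 in WT and 7793 in KO. PSMC6, an ATPase of the ring, was at 102, 94.6 and 94.1 CPM in untreated WT and 72.0, 60.4 and 56.5 in treated WT, a difference of -0.62 ± 0.19 whose adjusted p was 0.113, and 0.0225 with the block. PSMF1 was the member with the highest fold in either genotype after PSMB8 and PSMB9: 85.7, 77.6 and 81.5 CPM in untreated WT against 104, 117 and 108 in treated WT (0.42 ± 0.15, adjusted p = 0.155). Neither genotype's libraries of PSMF1 overlapped between treated and untreated cells, as for 11.3% of all genes higher in WT and 12.6% in KO. The test was not passed in KO either (0.31 ± 0.15).

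**Figure D3:**
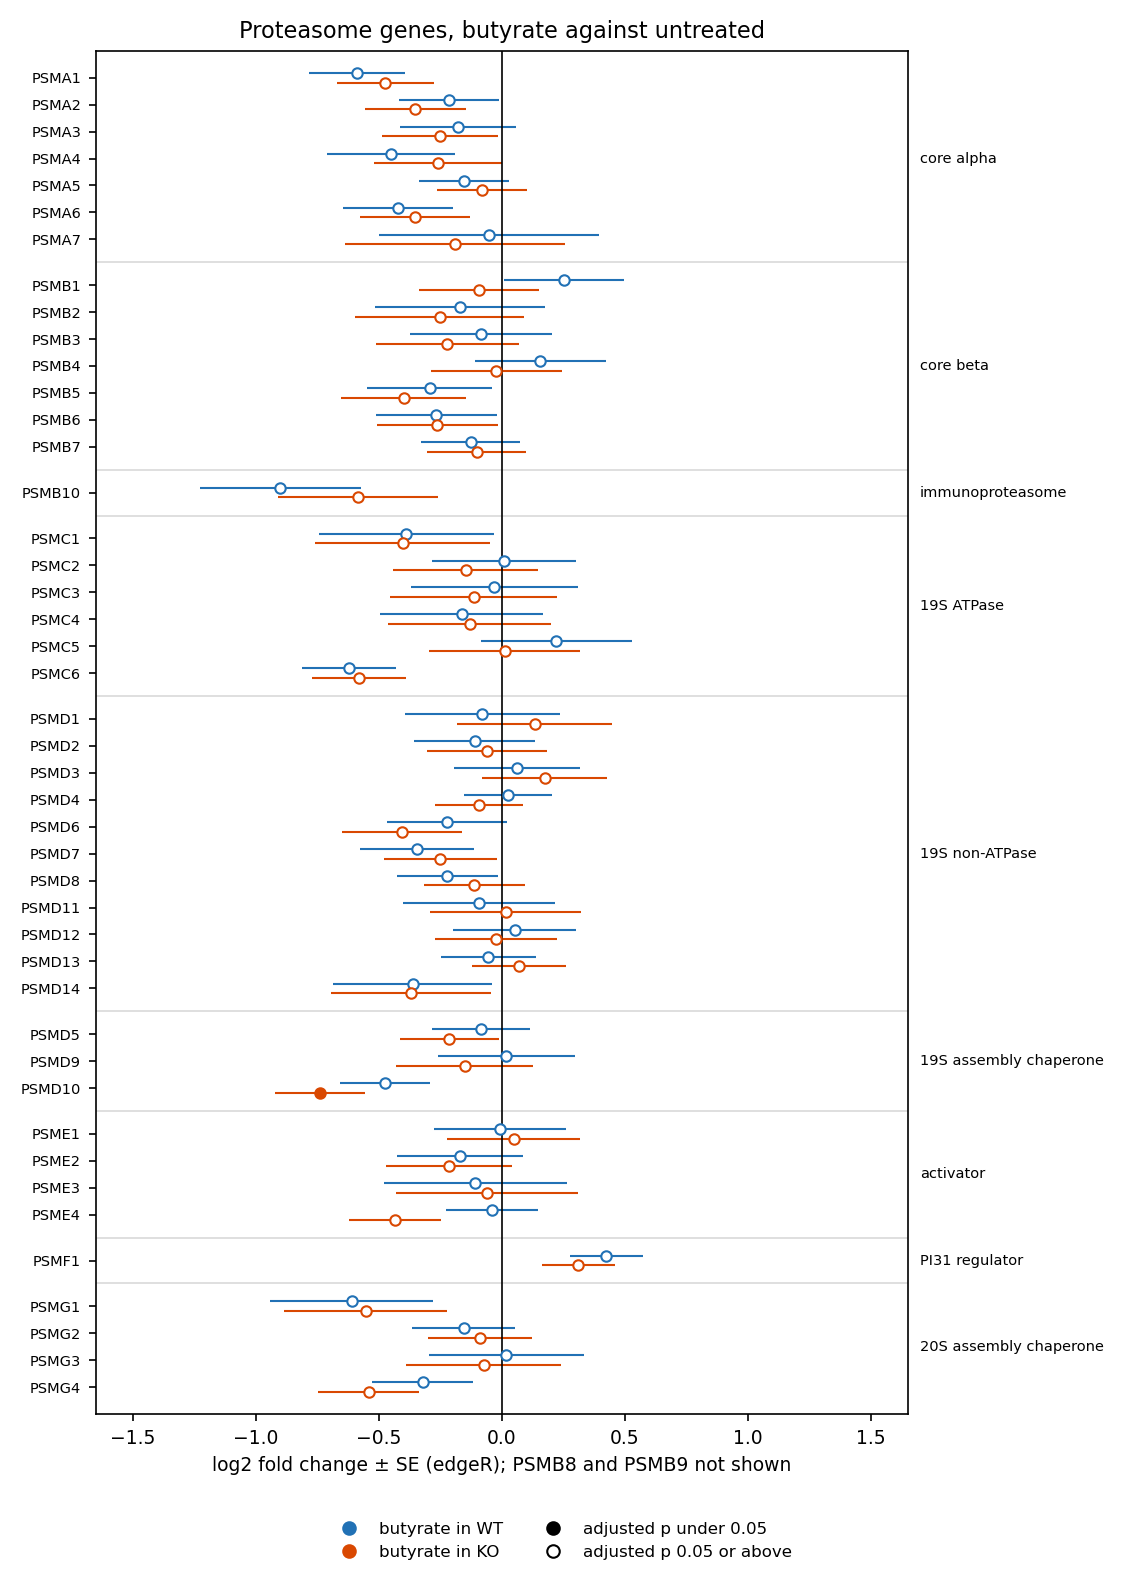
Log2 fold change with butyrate in WT and in KO (horizontal axis, ± SE, edgeR) of 44 proteasome genes by class (vertical axis), filled where the adjusted p was under 0.05. The one filled point is PSMD10 in KO, at -0.74; the core genes lie between -0.59 and 0.25.

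Between KO and WT cells, members of the core and the cap differed in both directions. The members on chromosome 7 had lower means in untreated KO than in untreated WT: PSMC2 (186 to 100 CPM), PSMA2 (183 to 138 CPM) and PSMG3 (65.6 to 45.1 CPM). Of these, PSMC2 passed the test. PSMG2, which was also lower, lies on chromosome 18. The part of chromosome position in the differences between genotypes was not tested. This holds also for the helpers and NFE2L1 pathway genes described below, whose positions were not compared. In untreated cells 9 of 46 members passed the test (19.6%, against 22.6% of all genes), 6 higher in KO (PSMB8, PSMB2, PSMC6, PSMD6, PSMD7 and PSME4) and 3 lower (PSMG2, PSMC2 and PSMA1), against 11.7% and 10.9% of all genes. Among butyrate-treated cells 5 passed (10.9%, against 19% of all genes), PSMC6 and PSMD7 higher and PSMC2, PSMG2 and PSMB1 lower, where 10.1% of all genes were higher and 8.89% lower. These shares lie near or below the background, so the members as a set did not stand out. The median log2 fold change was 0.08 in untreated and 0.02 in treated cells, against 0.02 and -0.00 for all genes. The sign of these medians depended on single libraries: in untreated cells the range was -0.09 (without replicate 1 of KO) to 0.20 (without replicate 1 of WT), with -0.03 without replicate 3 of WT. In treated cells it was -0.11 (without replicate 3 of WT) to 0.26 (without replicate 1 of WT), with -0.08 without replicate 1 of KO. With the block the counts were 14 (10 higher, 4 lower, background 33%) and 13 (8 higher, 5 lower, background 29.2%), and scaled by library size alone the treated comparison had 8 higher and 3 lower (18.6% of all genes were called). Without the libraries numbered 1 the counts were 10 (7 higher, 3 lower, background 26.2%) and 10 (7 higher, 3 lower, background 24.7%).

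PSMB2, a non-catalytic beta subunit, was higher in KO in both states. It was at 260, 150 and 165 CPM in untreated WT and 590, 360 and 297 CPM in untreated KO, a 2.17-fold difference (1.12 ± 0.35, adjusted p = 0.0354). After butyrate it was at 250, 137 and 124 CPM in WT and 457, 316 and 274 CPM in KO, again with no overlap (1.03 ± 0.35, adjusted p = 0.0553, and 2.80e-04 with the block). PSMB1, another beta subunit, was the opposite: 466, 357 and 288 CPM in treated WT against 243, 168 and 219 CPM in treated KO (-0.82 ± 0.25, adjusted p = 0.0341). In untreated cells its libraries overlapped, at 363, 303 and 266 CPM in WT and 289, 181 and 202 CPM in KO (adjusted p = 0.194, and 0.0391 with the block). PSMA1, an alpha subunit, was lower in untreated KO, at 179, 139 and 170 CPM against 254, 271 and 215 CPM in WT (-0.60 ± 0.20, adjusted p = 0.0434).

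Within the ATPase ring, PSMC6 was higher and PSMC2 lower in KO. PSMC6 was at 212, 153 and 160 CPM in untreated KO, above the 94.1 to 102 CPM of untreated WT, and at 137, 96.4 and 117 CPM in treated KO, above the 56.5 to 72.0 CPM of treated WT. PSMC2 was at 188, 205 and 166 CPM in untreated WT and 118, 98.8 and 84.8 CPM in untreated KO, and at 266, 160 and 135 against 131, 76.6 and 65.3 CPM after butyrate. The groups did not overlap in any of these 4 contrasts, as for 22.2% (higher) and 20.2% (lower) of all genes in untreated cells and 17.9% and 16% in treated cells. PSMC6 rose by 0.85 ± 0.19 (adjusted p = 0.00677) and 0.89 ± 0.19 (0.00634), while the change of PSMC2 was -0.89 ± 0.30 (0.0472) and -1.04 ± 0.30 (0.0268). PSMC1, PSMC3, PSMC4 and PSMC5 did not pass the test in either state. PSMC1 was at 30.7, 37.6 and 31.2 CPM in untreated WT and 66.6, 61.4 and 49.4 in untreated KO, without overlap. After butyrate its groups overlapped, at 43.0, 14.4 and 18.8 CPM in WT and 61.0, 39.1 and 34.2 in KO. With the block, 2 of the 6 ATPase genes were called higher and 1 lower in each state (background 33% and 29.2%).

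PSMD7, a non-ATPase subunit of the lid, was at 224, 188 and 171 CPM in untreated KO against 116, 110 and 126 CPM in untreated WT, and at 200, 146 and 146 against 127, 74.2 and 75.9 CPM after butyrate. The differences were 0.73 ± 0.23 (adjusted p = 0.0379) and 0.83 ± 0.23 (0.0255). PSMD6, another subunit of the lid, differed by 0.79 ± 0.25 in untreated cells (0.0364) and by 0.60 ± 0.25 in treated cells (0.111, and 0.00567 with the block). PSME4, the single-chain activator, had 298, 293 and 315 CPM in untreated KO and 158, 184 and 206 CPM in untreated WT (0.73 ± 0.19, adjusted p = 0.0148). After butyrate it was at 234, 246 and 191 CPM in KO and 141, 193 and 199 CPM in WT, where the groups overlapped and the test was not passed.

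PSMG2, a chaperone that pairs with PSMG1 to assemble the alpha ring, was lower in KO in each state. It stood at 85.5, 106 and 81.7 CPM in untreated WT and 43.3, 46.1 and 48.0 CPM in untreated KO (-0.99 ± 0.21, adjusted p = 0.0049), and at 101, 78.9 and 65.9 against 51.7, 33.8 and 43.9 CPM after butyrate (-0.92 ± 0.21, adjusted p = 0.0090). Its partner PSMG1 overlapped between the genotypes, at 83.6 to 144 CPM in untreated WT and 73.1 to 132 CPM in untreated KO. In both genotype comparisons PSMC6 and PSMG2 stayed past the threshold whichever of the 6 libraries was left out, with adjusted p up to 0.0399, and without the libraries numbered 1 the highest of their 4 values was 0.0152. In untreated cells the other 7 calls were lost without at least 2 of the 6 libraries, PSMC2 and PSMD7 without any 1 of them (adjusted p up to 0.128 and 0.129). Both PSMB2 and PSMD6 failed without replicate 2 or 3 of untreated WT or replicate 1 or 2 of untreated KO (adjusted p up to 0.160 and 0.159). PSMA1 passed only without replicate 3 of untreated WT (0.0481), whereas PSME4 failed only without replicate 1 of untreated WT (0.0637) or replicate 3 of untreated KO (0.0599). Among treated cells PSMC2 failed without replicate 1 of WT or replicate 2 or 3 of KO (up to 0.0947), and PSMD7 without replicate 2 or 3 of WT or replicate 1 of KO (up to 0.106). PSMB1 failed without replicate 1 or 2 of treated WT or replicate 2 or 3 of treated KO (up to 0.110). The direction of each of these genes was the same in every such fit.

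**Figure D4:**
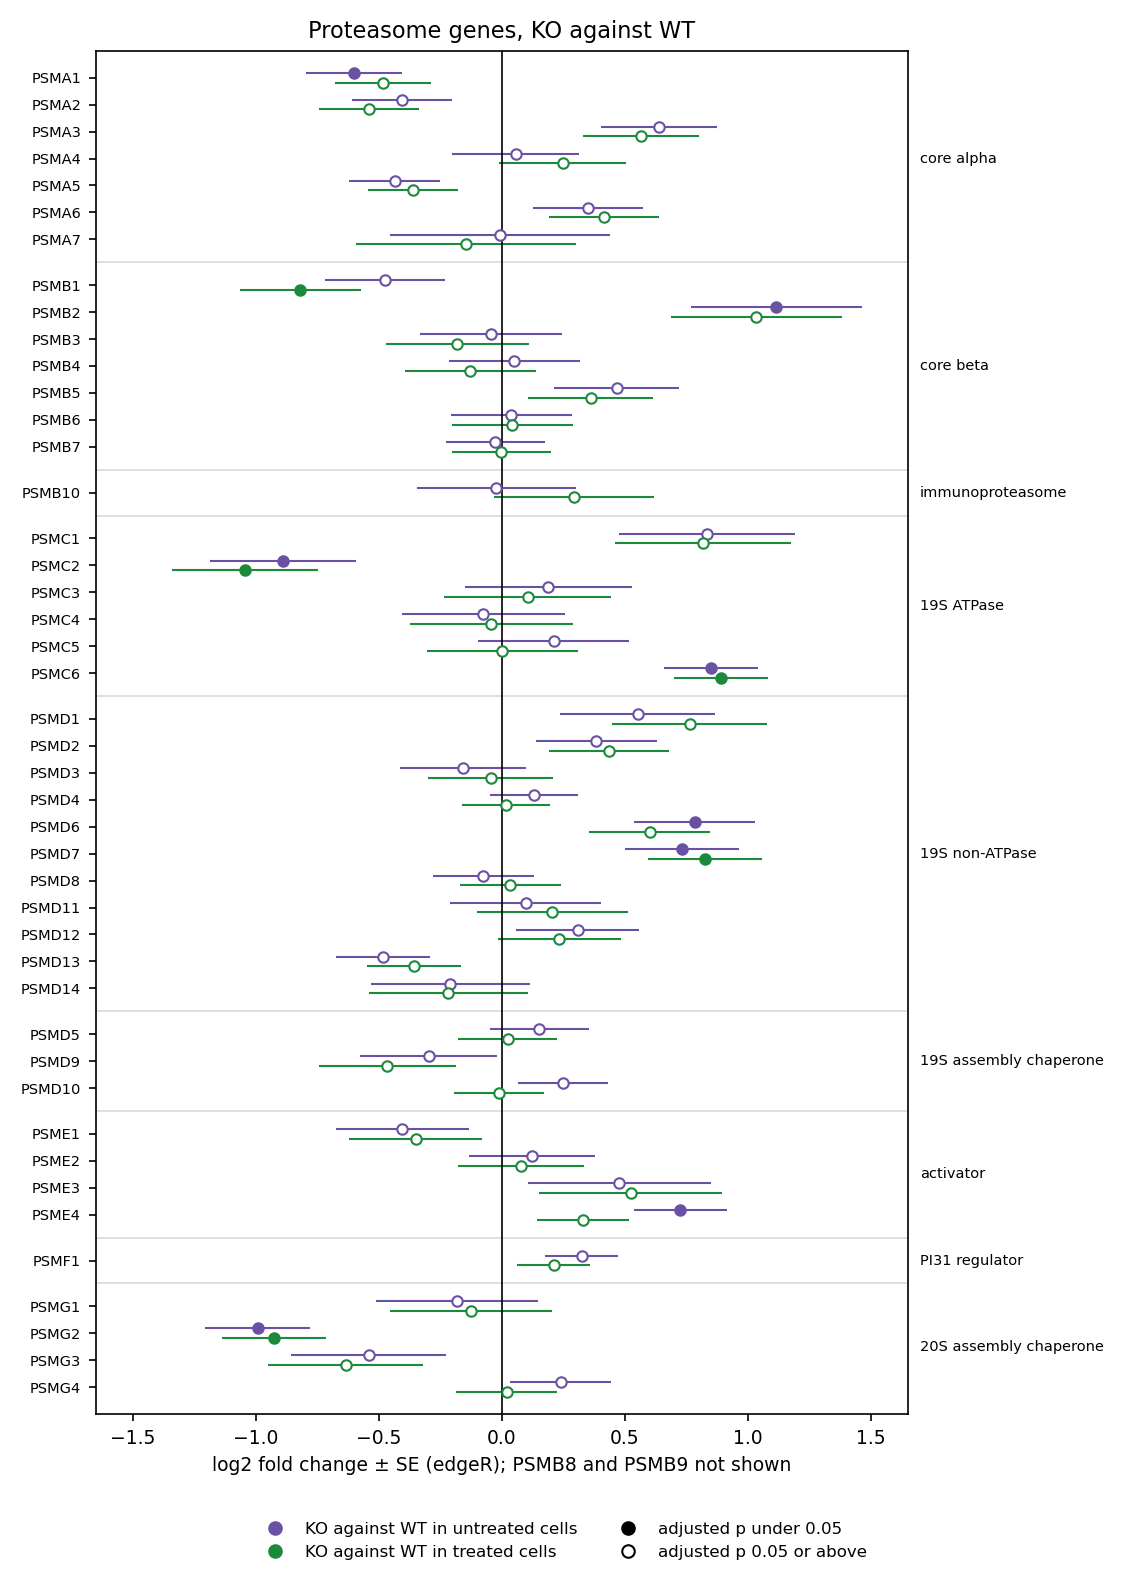
Log2 fold change of KO against WT in untreated and in treated cells (horizontal axis, ± SE, edgeR) of 44 proteasome genes by class (vertical axis), filled where the adjusted p was under 0.05. PSMC6 and PSMD7 are filled to the right and PSMC2 and PSMG2 to the left in both states.

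The interaction, in which the response of WT to butyrate is subtracted from that of KO, was past the threshold for 0 of 46 members by edgeR, with or without the block (0.019% of all genes with it), and by DESeq2. None had an unadjusted p under 0.05, against 658 of the 15805 genes, of which 0 passed the adjusted test. The differences were 1.30 ± 1.68 for PSMB9 and -5.78 ± 4.02 for PSMB8, the latter resting on an untreated WT group at 0 counts and so depending on the prior count. For the 44 others they ran from -0.39 to 0.32. A difference between the genotypes in the response of PSMB8 or PSMB9 was therefore not detectable with these errors.

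Genes that work with the proteasome were followed beside it. Of 14 other parts and helpers, 0 passed with butyrate in either genotype, and in KO 0 were higher and 3 lower than in WT in each state (21.4%, against 22.6% and 19% of all genes). With the block, ECPAS, an adaptor of the proteasome, was lower with butyrate in WT, at 189, 199 and 194 CPM untreated and 156, 56.8 and 64.0 treated (adjusted p = 0.117, and 0.0240 with the block). It was also lower in KO, at 212, 246 and 231 CPM untreated and 127, 77.0 and 81.8 treated (0.0592, and 0.0116 with the block). UCHL5, a deubiquitinase of the cap, was lower with butyrate in KO with the block alone (0.0261). SEM1, a small subunit of the cap lid, was at 94.3, 81.7 and 82.6 CPM in untreated WT and 54.2, 36.9 and 51.8 CPM in untreated KO (-0.86 ± 0.22, adjusted p = 0.0129), and the difference after butyrate was -0.74 ± 0.22 (0.0292). TXNL1, a cap-bound thioredoxin, differed by -1.0 ± 0.32 (0.0409) and -1.29 ± 0.32 (0.0148). The ubiquitin ligase UBE3C passed in untreated cells (-0.85 ± 0.22, 0.0144), and in treated cells with the block alone (0.0246), while the deubiquitinase USP14 passed in treated cells (-0.79 ± 0.25, 0.0428). POMP, the maturation factor of the core, was at 119 to 141 CPM in untreated WT and 152 to 223 CPM in untreated KO, without overlap and short of the threshold (adjusted p = 0.0617, and 0.0200 with the block). In treated cells its values were 0.0600 and 0.0157. The chromosome positions of these helpers were not compared, and the part of position in their differences between genotypes was not tested.

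Among 10 genes of the NFE2L1 pathway, none passed with butyrate and 2 were lower in KO in each state (20%, near the 22.6% and 19% of all genes). These were MAFG (-0.70 ± 0.20, adjusted p = 0.0232, and -0.69 ± 0.20, 0.0288) and MAFK (-0.91 ± 0.23, 0.0132, and -1.20 ± 0.23, 0.00316), which encode small partners of NFE2L1. NFE2L1 itself was at 119 to 207 CPM in untreated WT and 143 to 238 CPM in untreated KO. Of 15 genes for ubiquitin supply and delivery, 0 passed with butyrate or between untreated genotypes without the block, and 2 were lower in treated KO (13.3%): UBA6, a ubiquitin-activating enzyme (-0.80 ± 0.22, adjusted p = 0.0236), and SQSTM1, a shuttle to autophagy (-1.33 ± 0.35, 0.0191, with groups overlapping). With the block, 3 passed between untreated genotypes: the shuttle UBQLN1 was higher in KO (0.0313), and UBA6 (0.0382) and SQSTM1 (0.0119) were lower. RPS27A, which encodes ubiquitin fused to a ribosomal protein, was then lower with butyrate in KO (0.0197).

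The immunoproteasome supplies peptides to MHC class I, and genes of that route were followed in the same comparisons. Of 13 antigen processing genes tested, 2 rose with butyrate in WT, 3 rose in KO and 3 were higher in KO than in WT in each state, and none passed in the other direction. These shares were 15.4% in WT and 23.1% in KO with butyrate, against 2.35% and 3.4% of all genes, and 23.1% for genotype in each state, against 22.6% and 19% of all genes. Folds with butyrate were below 1 for 6 of the 13 in WT and 7 in KO. TAP2, a partner of TAP1, was at 171, 163 and 153 CPM in untreated WT and 30.5, 127 and 97.6 in treated WT, without overlap (adjusted p = 0.2997, and 0.0413 with the block). ERAP1, which trims peptides, was likewise lower in treated WT with the block alone (0.121, and 0.0473 with it), and TAPBP had no overlap there and did not pass in either fit. With the block HLA-E was higher with butyrate in KO (0.00352) and lower in untreated KO than in untreated WT (0.0117), and TAP2 was higher in treated KO than in treated WT (0.0175). HLA-C had 0 counts in each untreated WT library and 0.363, 0.939 and 1.46 CPM in treated WT, at least 6.87-fold higher (adjusted p = 0.0278). It was at 30.6, 48.0 and 105 CPM in untreated KO and 197, 213 and 333 CPM in treated KO. HLA-B rose as well, from 0, 0 and 0.504 CPM to 2.59, 5.08 and 5.12 CPM in WT and from 2.94, 2.76 and 12.3 CPM to 50.2, 55.9 and 90.5 CPM in KO (3.44 ± 0.75, adjusted p = 0.0303). NLRC5, the activator of MHC class I transcription, was at most 0.604 CPM in WT and at 6.26, 7.47 and 8.99 CPM in untreated KO and 44.3, 44.7 and 28.2 CPM in treated KO (2.37 ± 0.50 with butyrate, adjusted p = 0.0278).

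TAP1, which shares a stretch of chromosome 6 with PSMB9 and moves peptides into the endoplasmic reticulum, was low in the library numbered 1 of each group. Its levels were 4.06, 23.7 and 23.1 CPM in untreated WT, 9.69, 71.1 and 62.3 in treated WT, 6.85, 10.3 and 34.0 in untreated KO and 9.28, 81.9 and 87.1 in treated KO. The rise with butyrate did not pass the test (adjusted p = 0.433 in WT and 0.308 in KO), and with the block it did (0.0348 and 0.0271). The same libraries numbered 1 had the lowest PSMB8 of their groups, or shared the lowest value, and the same held for PSMB9. HLA genes have close relatives in the genome, so their levels depend on how shared reads were counted, which is not given in the sources used here.

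**Figure D5:**
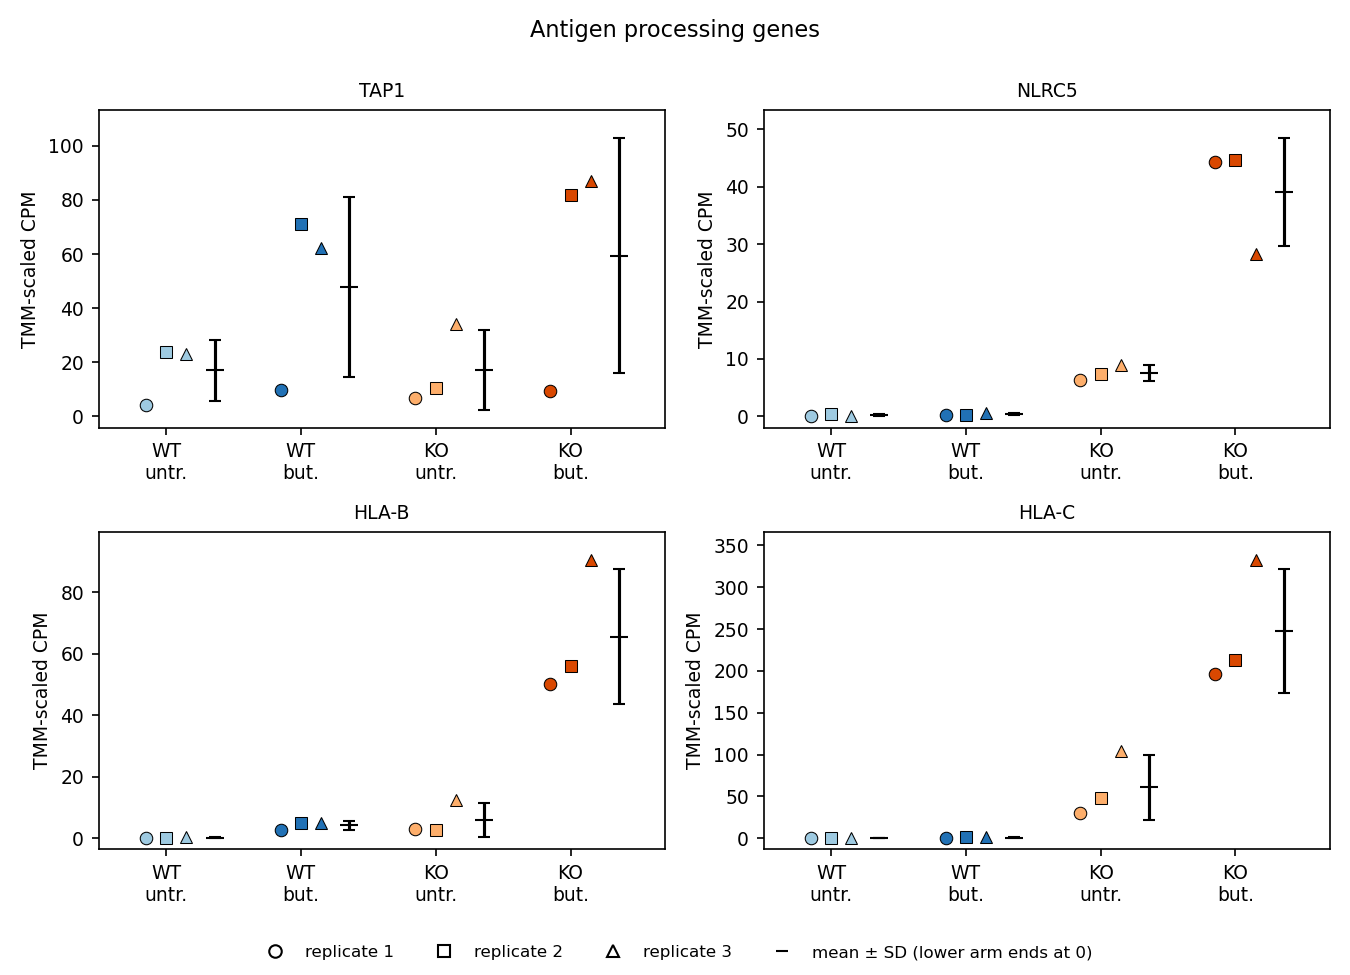
Levels of TAP1, NLRC5, HLA-B and HLA-C in TMM-scaled CPM (vertical axes) by group (WT or KO, untreated or butyrate), with each library as a point and the mean ± SD of 3 libraries beside it. HLA-C lies at 1.46 CPM or less in WT and reaches 333 CPM in treated KO.

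Of 17 genes of an interferon response list, 13 were tested. Among these, 0 rose with butyrate in either genotype and IFNGR2, a chain of the interferon gamma receptor, fell in WT (-1.08 ± 0.21, adjusted p = 0.0222). OAS1 had 0 counts in all 12 libraries and MX1 at most 0.0953 CPM, and IFIT1 stayed at or below 0.838 CPM. Of the 13, 1 was higher and 2 were lower in untreated KO than in untreated WT: GBP2, a GTPase induced by interferon, was higher (3.42 ± 0.92, 0.0183), whereas STAT2 and IRF2 were lower there (-0.87 ± 0.24, 0.0195, and -0.79 ± 0.24, 0.0332). These are 23.1% of the genes tested, near the 22.6% of all genes. In treated cells IFNGR2 was higher in KO (0.89 ± 0.21, 0.00955) and JAK2, a kinase of the receptors, was lower (-1.13 ± 0.35, 0.0391), which are 15.4% against 19%. With the block alone, JAK2 was lower with butyrate in KO, JAK1 was higher and IRF7 lower in untreated KO, and GBP2 was higher and STAT2 and IRF7 lower in treated KO (adjusted p up to 0.0392).

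Markers of other blood and stromal cells moved in some of the same comparisons. The summed level of 6 myeloid markers was 27.7 to 38.8 CPM in untreated WT, 54.8 to 74.2 in treated WT, 23.8 to 95.2 in untreated KO and 81.2 to 165 in treated KO, led by CD68 and ITGAM. For 6 megakaryocyte markers the sums were 29.2 to 57.8, 112 to 224, 5.40 to 20.2 and 55.6 to 82.6 CPM, and for 6 stromal markers 2.65 to 5.21, 44.0 to 110, 2.35 to 5.12 and 69.1 to 157 CPM, with COL1A1 alone at 43.2 to 108 CPM in treated WT and 67.3 to 154 in treated KO. For 6 lymphoid markers they were 15.7 to 23.2, 14.0 to 27.1, 5.14 to 6.33 and 11.3 to 13.8 CPM. The sums join markers that moved in opposite directions. Between untreated genotypes, the myeloid, lymphoid and megakaryocyte lists each had 1 marker called higher and 2 lower in KO. These are 60%, 60% and 100% of those tested, against 22.6% of all genes. ITGAM was at most 1.85 CPM in untreated WT and 18.2, 26.6 and 77.4 in untreated KO. CD68 was at 13.6, 14.2 and 20.2 CPM against 2.73, 4.04 and 8.53. The defining markers MS4A1 (B cells), PF4 (platelets) and LUM (fibroblasts) had 0 counts in all 12 libraries. The part of such changes in the results for PSMB8 and PSMB9 was not tested.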

How the data were processed

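The authors deposited raw counts in 1 table, with gene symbols as rows and 12 libraries of K562 total RNA (4 groups of 3) as columns. FastQC 0.12.1, STAR 2.7.11b and the genome build hg38 are named in the submitters' processing notes. The counting tool, the use of strand and the treatment of reads with several matches are not given in the sources used here. Groups and replicate numbers came from the sample titles, 0 columns were unused and 0 rows named no gene.

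The deposited counts entered edgeR 4.0.16 (R 4.3.3) without change. After filterByExpr (minimum count 10, leaving 15805 genes) and TMM scaling, 1 quasi-likelihood fit with 4 group means covered the 12 libraries; it was tested on simulated data. The 5 contrasts were tested with Benjamini-Hochberg adjustment over all genes and a threshold of 0.05. Fold changes are log2 with SE, at the default prior count of edgeR, and levels are TMM-scaled CPM with SD. A prior count of 2 was used for the log2 levels behind the correlations given below. The floor was 3 counts per library. Wilson intervals are at 95%.

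Same-numbered libraries deviated together from their group means: the correlations over genes were 0.195 to 0.409 and 0.147 to 0.468 for butyrate in WT and KO, and 0.210 to 0.361 and 0.315 to 0.595 for genotype in untreated and treated cells. The highest between different numbers were 0.186, 0.123, 0.0692 and 0.343 in that order, the last above the lowest for shared numbers. Every pair with a shared number being above 0.1, the numbers in the titles were taken to pair the samples. The values 0.186, 0.123 and 0.343 for different numbers also exceed 0.1, so this limit alone cannot separate pairs from other libraries. Results with the block rest on that choice. A fit with the replicate block is given where it changed a reported count of calls, and not every gene that it added is named. No 2 replicates agreed within sampling noise (chi-square per degree of freedom at least 40.0).

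Other alternatives were DESeq2 1.42.0, other scalings and filters, and fewer libraries. Lengths are from GENCODE release 29, and promoters, pseudogene names and positions from RefSeq (GRCh38.p14), which matched 48 of 48 members by symbol and 42 of 48 with a promoter. Values per library are given for the inducible genes and their counterparts, PSME1 to PSME4, members past the threshold (where more than 8, the 3 largest rises and falls) and the largest rise and fall in each comparison. The members, lists and rules were chosen with earlier results of these data known. Genes called only with the block were named after their values were seen. Some genes of the lists are not reported here.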

Additional observations from a re-analysis of the deposited data

How the results depend on the processing

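For butyrate in WT, where 0 members passed, the count was 3 by DESeq2, 6 with the replicate block and 8 without the libraries numbered 1, and 0 to 6 when 1 library was left out, 6 being reached without replicate 1 of treated WT. For butyrate in KO the 2 calls became 0 with scaling by library size alone, 1 with RLE size factors, 1 with no filter, 1 with only the groups compared and 4 with the replicate block, and 0 to 2 with 1 library left out. In untreated cells the 9 genotype calls became 14 with the replicate block and 3 to 5 with 1 library left out. In treated cells the 5 became 11 with library size alone, 13 with the replicate block, 10 without the libraries numbered 1, 1 with only the groups compared and 3 to 9 with 1 library left out, 9 without replicate 1 of treated WT. The interaction count was 0 under each alternative run. The log2 fold changes of single genes followed through these alternatives (84 in all) kept their sign. The median over the members did not: it ranged from -0.09 to 0.20 and from -0.11 to 0.26 for genotype in untreated and treated cells with 1 library left out, and for the interaction it went from -0.03 to 0.11 with library size alone or without the libraries numbered 1, to 0.02 with the replicate block, and to -0.18 to 0.22 with 1 library left out. With 3 libraries a group, genes near the limit of detection such as PSMB8 have wide errors, and the causes of these shifts were not tested.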
